A study of Mus musculus with 6 samples.

Results

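Chemokines and their receptors were described in bulk RNA-Seq of inguinal white adipose tissue (iWAT), a subcutaneous fat depot of the mouse. The genes were chosen by name, as symbols that begin with *Ccl*, *Cxcl*, *Ccr* or *Cxcr* and a number, together with the XC, CX3C and atypical receptor families, and 53 of the 19509 symbols in the count table met this rule. Of these, 34 were ligands, among them the pseudogene *Ccl19-ps3*, and 19 were receptors. The tissue came from *Lexis*-AdKO mice, in which a floxed allele of the long noncoding RNA *Lexis* is combined with *Adipoq*-cre, a transgene that acts in adipocytes, and from *Lexis*-AdWT littermates that carry the floxed allele without the Cre. All mice were on a C57BL/6 background and were fed Western diet for 12 weeks, and their age and sex in this experiment are not given in the sources used here. Each group had 3 libraries. The deletion is in adipocytes, so the immune, endothelial and stromal cells of the depot, which make most chemokines and receptors, keep the gene in both groups.

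Chemokines are small secreted proteins that guide leukocytes along gradients, and they act through G protein-coupled receptors on the responding cell. The CC ligands mainly draw monocytes, T cells and eosinophils, most CXC ligands draw neutrophils or lymphocytes, and atypical receptors bind chemokines without G protein signaling. In the adipose tissue of obese mice, the ligand CCL2 and its receptor CCR2 are best known for drawing monocytes that become adipose tissue macrophages. In bulk tissue, fewer cells of a type and less RNA per cell cannot be told apart.

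The libraries held 14470542 to 17882713 counts. Values are CPM, a gene's share of the reads of its library, after scaling of the library totals by the TMM method, and differences are log2 fold changes of the AdKO group over the AdWT group, with their standard errors (SE). Where no read was counted, up to 3 counts remain possible (0.179 to 0.206 CPM), a floor that covers counting error only. The targeted gene, listed as *4930412L05Rik*, had 8, 9 and 8 counts under the AdWT label and 21, 11 and 13 under the AdKO label (log2 fold change 0.87, SE 0.381, adjusted *p* = 0.851 in edgeR). It was therefore not lower where the label says that it was deleted, and every direction below follows the labels. These counts are low, and whether they come from the deleted part of the gene was not tested. The summed level of 6 adipocyte marker genes was 46220 to 54690 CPM in the AdWT group and 41400 to 42070 CPM in the AdKO group, so the defining genes of fat were abundant in all libraries.

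No chemokine or receptor gene differed between the groups after adjustment. Of the 53 genes, 27 passed the filter on low counts (18 ligands and 9 receptors), and 0 of the 27 had an adjusted *p* under 0.05 in edgeR, as was the case for 0 of all 9872 rows tested (0%). The smallest adjusted *p* of these genes was 0.847. At an unadjusted *p* under 0.05 in edgeR there were 3 of 27 (11.1%), the atypical receptor *Darc* and the ligands *Ccl2* and *Ccl7*, against 566 of all rows (5.73%). All 3 were on the side of the AdKO label, where 2.76% of all rows were, and 0 were on the other side, where 2.98% of all rows were. With DESeq2, 29 of the 41 genes fitted had an adjusted *p*, of which 0 were under 0.05, the smallest being 1.0, against 17 of 11217 rows (0.152%), and 4 of 41 (*Cxcl12*, *Darc*, *Ccl2* and *Ccr3*) had an unadjusted *p* under 0.05, against 2.42% of all rows.

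The log2 fold change was above 0 for 20 of the 27 genes tested (74.1%), against 51.7% of all rows. Its median was 0.17 over these genes and 0.01 over all rows. Both depended on single libraries, with 26 of 28 genes above 0 and a median of 0.46 without AdWT replicate 1, 18 of 29 and 0.05 without AdWT replicate 2, and 17 of 29 and 0.11 without AdWT replicate 3. Among the ligands 12 lay above 0 and 6 below (median 0.15), and among the receptors 8 lay above and 1 below (median 0.19). The 2 groups did not overlap for 2 genes, *Darc* and *Ccl7* (7.41%, against 11.9% of all rows), and in both the AdKO group was higher, as in 6.16% of all rows, so the count was near the background. The count at an unadjusted *p* under 0.05 depended on single libraries. It was 9 of 28 without AdWT replicate 1, against 11.8% of all rows in that fit, 1 without AdKO replicate 2 (3.82% of all rows) and 1 without AdKO replicate 3 (5.04%).

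**Figure D1:**
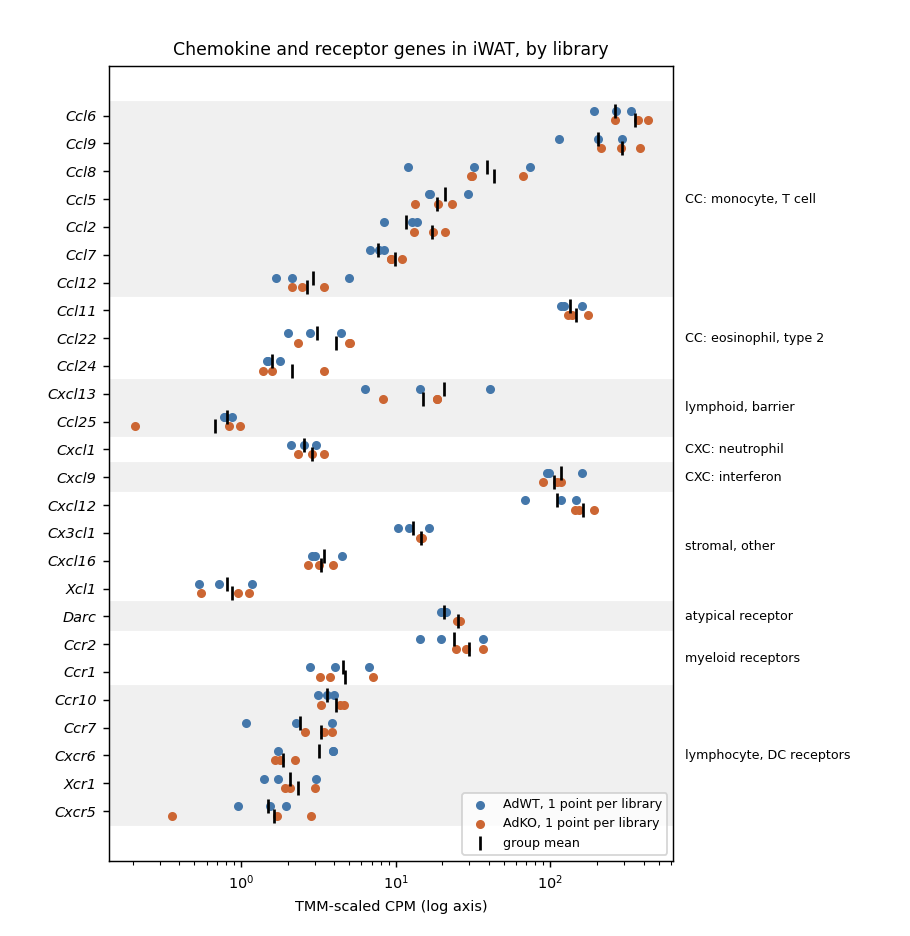
Level of 26 of the genes tested, in TMM-scaled CPM on a log axis, with 1 point for each of the 6 libraries and a bar for each group mean, ordered by role. The points of the 2 groups overlap for every gene except *Darc* and *Ccl7*, and the points of *Ccl8*, *Cxcl13* and *Cxcr5* are the most widely spread.

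The CC ligands that draw monocytes and T cells held the genes with the highest CPM. Their mean levels summed to 546.7 CPM in the AdWT group and 735.5 CPM in the AdKO group. Of the 9 listed, 7 were tested, 5 with a log2 fold change above 0 and 2 below (median 0.36), and *Ccl3* and *Ccl4* were at 0 in all libraries. *Ccl6* and *Ccl9*, ligands of CCR1 that lie next to each other on chromosome 11, made up 47.6% of the summed CPM of all 27 genes. *Ccl6* (ENSMUSG00000018927.3, chr11:83401384-83406589, minus strand, NCBIM37) was at 330.3, 265.8 and 191.0 CPM in the AdWT group and at 262.9, 370.3 and 426.0 CPM in the AdKO group. The group means were 262 ± 69.7 and 353 ± 82.9 CPM (SD, n = 3). The groups overlapped, since AdKO replicate 1 lay below AdWT replicates 1 and 2, and the log2 fold change was 0.43 (SE 0.231, unadjusted *p* = 0.104 in edgeR). It was 0.24 without AdWT replicate 3 and 0.63 without AdWT replicate 1.

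*Ccl9* (ENSMUSG00000019122.7, chr11:83386421-83392138, minus strand) was at 288.9, 202.8 and 114.5 CPM under the AdWT label and at 212.8, 284.7 and 376.8 CPM under the AdKO label. AdWT replicate 3 was the lowest library and AdKO replicate 3 the highest, as for *Ccl6*. The log2 fold change was 0.53 (SE 0.334, unadjusted *p* = 0.155 in edgeR), and it lay between 0.24 without AdWT replicate 3 and 0.88 without AdWT replicate 1. The start regions of this pair, the 2 with the highest CPM (not corrected for length), are shown because a stretch of them is alike. They are the RefSeq promoters of GRCm38.p6, from 250 bases before the gene start to 50 bases after it, written 5′ to 3′ on the strand of the gene, with the aligned stretch in capitals.
Ccl6 (chr11:83593038-83593337, minus strand): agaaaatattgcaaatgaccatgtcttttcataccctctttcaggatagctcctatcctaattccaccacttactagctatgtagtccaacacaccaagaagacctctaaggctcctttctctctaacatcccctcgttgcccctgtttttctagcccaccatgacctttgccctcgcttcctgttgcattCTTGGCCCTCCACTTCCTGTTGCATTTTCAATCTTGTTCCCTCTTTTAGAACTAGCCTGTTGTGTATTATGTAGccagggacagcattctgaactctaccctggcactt
Ccl9 (chr11:83578587-83578886, minus strand): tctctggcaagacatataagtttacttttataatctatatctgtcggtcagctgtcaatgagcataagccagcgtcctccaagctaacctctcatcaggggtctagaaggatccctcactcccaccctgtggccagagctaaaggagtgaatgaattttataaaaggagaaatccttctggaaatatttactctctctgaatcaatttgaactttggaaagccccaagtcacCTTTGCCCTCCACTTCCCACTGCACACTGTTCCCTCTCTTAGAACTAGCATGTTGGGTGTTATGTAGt
The aligned stretch begins 59 bases before the start of *Ccl6* and 18 bases before that of *Ccl9*, and 59 of its 74 columns are identical (79.7%), with 7 columns of gaps. Of the 136 pairs of promoters that could be formed from the 17 of the 27 tested genes with a promoter entry, *Ccl8* and *Ccl12* had the highest alignment score, with 61.1% identity over 296 columns, and *Ccl6* and *Ccl9* came next. The pair was chosen for display after its values were seen.

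*Ccl2* and *Ccl7*, both ligands of CCR2, are neighbors at the start of another cluster on chromosome 11. *Ccl2* (ENSMUSG00000035385.5, chr11:81849073-81850955) was at 13.81, 12.67 and 8.431 CPM in the AdWT group and at 13.2, 17.39 and 20.79 CPM in the AdKO group. AdKO replicate 1 lay within the AdWT values, so the groups overlapped. The log2 fold change was 0.56 (SE 0.233, unadjusted *p* = 0.0463 and adjusted *p* = 0.851 in edgeR). It was 0.36 (unadjusted *p* = 0.112 in edgeR) without AdWT replicate 3 and 0.39 (0.156) without AdKO replicate 3. It stayed between 0.54 and 0.62 without AdWT replicate 2 (0.0707), without AdKO replicate 2 (0.0976) and with the replicate block (0.0861), where the unadjusted *p* was also above 0.05. *Ccl7* (ENSMUSG00000035373.2, chr11:81859214-81861027) was at 6.805, 7.771 and 8.364 CPM against 10.93, 9.288 and 9.314 CPM, and every AdKO library lay above every AdWT library. Its means were 7.65 ± 0.787 and 9.84 ± 0.941 CPM (SD, n = 3; two-sided exact permutation test, *p* = 0.1, which is the smallest value that 3 libraries against 3 allow). The log2 fold change was 0.36 (SE 0.151, unadjusted *p* = 0.0451 and adjusted *p* = 0.851 in edgeR). The unadjusted *p* was above 0.05 in several alternatives in which the log2 fold change stayed between 0.28 and 0.40, such as 0.14 without AdKO replicate 1, 0.118 without AdWT replicate 1, 0.0517 with RLE scaling, 0.0874 in DESeq2 and 0.0893 with the replicate block.

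*Ccl8*, a CC ligand made by macrophages, was at 73.74, 31.86 and 11.98 CPM in the AdWT group and at 31.0, 66.99 and 30.83 CPM in the AdKO group. The AdWT libraries thus held both the highest and the lowest value, which differed 6.16-fold. The log2 fold change of 0.13 (SE 0.603) turned to -0.30 without AdWT replicate 3. *Ccl5*, which draws T cells, was at 29.51, 16.56 and 16.53 CPM against 13.27, 23.19 and 18.69 CPM, with a log2 fold change of -0.18 (SE 0.285) that turned to 0.15 without AdWT replicate 1. *Ccl12* had a log2 fold change of -0.13 at 28 to 76 counts.

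Among the CC ligands of eosinophil and type 2 responses, 3 of 6 were tested, and all 3 had a log2 fold change above 0 (median 0.41). *Ccl11*, or eotaxin, which draws eosinophils through CCR3, was the most abundant of them, at 117.4, 122.5 and 161.0 CPM in the AdWT group and 174.3, 137.5 and 130.2 CPM in the AdKO group. The ranges of the groups overlapped, and the log2 fold change was 0.14 (SE 0.154), and it was 0.29 without AdWT replicate 3 but 0.0022 without AdKO replicate 1. In contrast with *Ccl6* and *Ccl9*, *Ccl11* was not lowest in AdWT replicate 3, which was instead its second highest library. *Ccl22* (0.42, SE 0.384) and *Ccl24* (0.41, SE 0.374) rested on 22 to 83 counts per library, and *Ccl22* was at 0.19 without AdWT replicate 3 and 0.78 without AdWT replicate 1. For *Ccl24* a single library was high, with 50 counts in AdKO replicate 1 and 22 to 30 in the other libraries, and without it the log2 fold change was -0.10.

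Of the 9 ligands of lymphoid tissue and barrier surfaces, 6 were at 0 and 2 were tested. *Cxcl13*, which draws B cells through CXCR5, was at 40.5, 14.41 and 6.29 CPM in the AdWT group and at 18.49, 18.58 and 8.232 CPM in the AdKO group. AdWT replicate 1 was far above every other library, and the log2 fold change of -0.44 (SE 0.628) turned to 0.54 without it. The B cell markers *Cd79a* and *Ms4a1* were high in the same library, with 86 counts of *Cd79a* there and 11 to 34 in the other libraries, and 39 counts of *Ms4a1* there and 0 to 15 elsewhere, but the marker *Blk* was not, with 11 counts there and 10 to 25 elsewhere. The summed level of the 7 B cell markers with a row was 2.07 to 9.75 CPM in the AdWT group and 1.80 to 5.14 CPM in the AdKO group, and *Cr2* was at 0. The summed level of 6 markers of high endothelial venules and follicular stroma, cells of the lymph node, was at most 1.68 CPM in any library. In that library, AdKO replicate 3, 1.44 CPM came from *Enpp2*. Such low counts are only what the table lists and do not show that these cells were absent. The part of these cells in the level of *Cxcl13* was not tested.

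*Cxcl9*, which interferon-γ induces and which draws T cells through CXCR3, was at 160.1, 97.68 and 94.61 CPM against 110.7, 117.2 and 89.83 CPM. AdWT replicate 1 was again the highest library, and the log2 fold change was -0.15 (SE 0.211) and 0.14 without it. *Cxcl1*, a neutrophil ligand, had 34 to 57 counts per library and a log2 fold change of 0.17 (SE 0.235), which was 0.0283 without AdKO replicate 3 and 0.31 without AdWT replicate 3. Of the other 2 neutrophil ligands analysed, *Cxcl2* had 1 to 5 counts and *Cxcl15* was at 0.

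NF-κB is a known activator of *Cxcl1* and of other inflammatory chemokines, and its motif, GGGA and TCC with 3 bases of any kind between them, was searched on both strands of the promoters. It was found in 3 of the 17 tested genes with an entry (*Cxcl1*, *Ccl22* and *Ccr1*) and in 4.59% of the 32851 full-length promoters. The *Cxcl1* promoter is shown as the example with 2 overlapping matches, which begin 71 and 70 bases before the gene start and are in capitals.
Cxcl1 (chr5:90890995-90891294, plus strand, GRCm38.p6): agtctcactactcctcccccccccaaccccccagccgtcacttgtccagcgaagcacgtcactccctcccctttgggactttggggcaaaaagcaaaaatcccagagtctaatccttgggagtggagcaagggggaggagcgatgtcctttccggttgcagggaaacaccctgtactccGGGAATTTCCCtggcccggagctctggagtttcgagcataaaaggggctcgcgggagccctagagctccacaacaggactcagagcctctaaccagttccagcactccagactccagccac
The motifs GAAA and again GAAA after 2 bases of any kind, of interferon response factors (3.44% of all promoters), TTCNNNGAA of STAT factors (8.3%) and GAGGAAGT of PU.1 (3.2%) were found in 0 of the 17. A match describes the letters of the window and not binding by a factor, and overlaps of one motif with another were allowed.

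Of the stromal and other ligands, 4 of 5 were tested, 3 with a log2 fold change above 0. *Cxcl12*, made by stromal and endothelial cells and the ligand of CXCR4, had the largest difference relative to its error among them. It was at 145.4, 117.2 and 68.38 CPM in the AdWT group and at 152.8, 190.0 and 144.5 CPM in the AdKO group. The groups overlapped at AdWT replicate 1 and AdKO replicate 3 alone, with 145.4 and 144.5 CPM, and the log2 fold change was 0.56 (SE 0.253, unadjusted *p* = 0.0614 in edgeR), with 0.30 without AdWT replicate 3 and 0.81 without AdWT replicate 1. The unadjusted *p* was 0.0203 with the replicate block and 0.0185 with the filter of at least 1 count in any library, both in edgeR, and 0.0226 in DESeq2. *Cxcl12* has 3 rows in the table, and the second most abundant row, with 1815, 1753 and 987 counts against 1617, 2109 and 1478, had a log2 fold change of 0.23 (SE 0.236). With the rows summed it was 0.41 (unadjusted *p* = 0.132 in edgeR). *Cx3cl1* had a log2 fold change of 0.17 (0.02 without AdWT replicate 2 and 0.38 without AdWT replicate 1), *Xcl1* of 0.12 and *Cxcl16* of -0.08.

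The atypical receptor *Darc* (current symbol *Ackr1*, ENSMUSG00000037872.4, chr1:175262017-175263634), known from venous endothelium and red cells, was the steadiest of the genes. It was at 21.0, 20.92 and 19.61 CPM in the AdWT libraries and at 25.5, 26.02 and 24.82 CPM in the AdKO libraries. The groups did not overlap, with means of 20.5 ± 0.785 and 25.5 ± 0.603 CPM (SD, n = 3; two-sided exact permutation test, *p* = 0.1). The log2 fold change was 0.31 (SE 0.0901, unadjusted *p* = 0.00978 and adjusted *p* = 0.847 in edgeR), so the difference was larger than the spread between libraries but did not pass the adjustment over all rows. It stayed between 0.27 and 0.33 with each library left out in turn, with an unadjusted *p* of at most 0.0366. The summed level of 5 blood endothelial markers was 877.7 to 1283 CPM in the AdWT group and 860.3 to 1222 CPM in the AdKO group, most of it from *Cdh5*, while *Kdr* had at most 2 counts. The part of endothelial cells in the level of *Darc* was not tested.

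Among the receptors of myeloid cells, *Ccr2*, the monocyte receptor of CCL2 and CCL7, was at 36.9, 19.61 and 14.45 CPM in the AdWT group and at 24.54, 36.95 and 28.36 CPM in the AdKO group (log2 fold change 0.34, SE 0.332). AdWT replicate 1 was as high as the highest AdKO library, while the other AdWT libraries were lower than every AdKO library. Without AdWT replicate 1 the log2 fold change was 0.81, and without AdWT replicate 3 it was 0.08. *Ccr2* has 2 rows in the table, and the other row had 7 to 15 counts per library. *Ccr1*, a receptor of CCL6 and CCL9, had 42 to 118 counts per library and a log2 fold change of 0.05 (SE 0.402), which turned to -0.38 without AdKO replicate 3.

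Among the receptors of lymphocytes and dendritic cells, 5 of 10 were tested, at 6 to 67 counts per library. *Cxcr6*, found on memory T and NKT cells, had the largest difference in the direction of the AdWT label of all 27 genes. It had 60, 66 and 26 counts in the AdWT group and 24, 27 and 37 in the AdKO group (log2 fold change -0.76, SE 0.338, unadjusted *p* = 0.0567 in edgeR), and AdWT replicate 3 lay within the AdKO values. Without that library the log2 fold change was -1.06 (unadjusted *p* = 0.0025 in edgeR), and with the filter of at least 1 count in any library the unadjusted *p* was 0.0347. The difference was smaller without AdWT replicate 1 (-0.60, unadjusted *p* = 0.163 in edgeR) and without AdWT replicate 2 (-0.59, 0.178). The unadjusted *p* was 0.115 with the replicate block in edgeR and 0.0597 in DESeq2. The ligand of CXCR6, *Cxcl16*, was at 41 to 69 counts. *Ccr7*, which guides dendritic cells and naive T cells to lymph nodes, had a log2 fold change of 0.46 (SE 0.418), with 0.11 without AdWT replicate 3 and 0.97 without AdWT replicate 1. *Ccr10*, *Xcr1* and *Cxcr5* had values of 0.19 (0.0963 without AdKO replicate 1 and 0.32 without AdKO replicate 3), 0.17 and 0.13, and *Cxcr5* reached from 6 counts in AdKO replicate 3 to 43 in AdKO replicate 2. The summed level of 10 T and NK cell markers was 20.3 to 32.9 CPM in the AdWT group and 22.5 to 30.5 CPM in the AdKO group, with *Klrb1c* at 0.

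**Figure D2:**
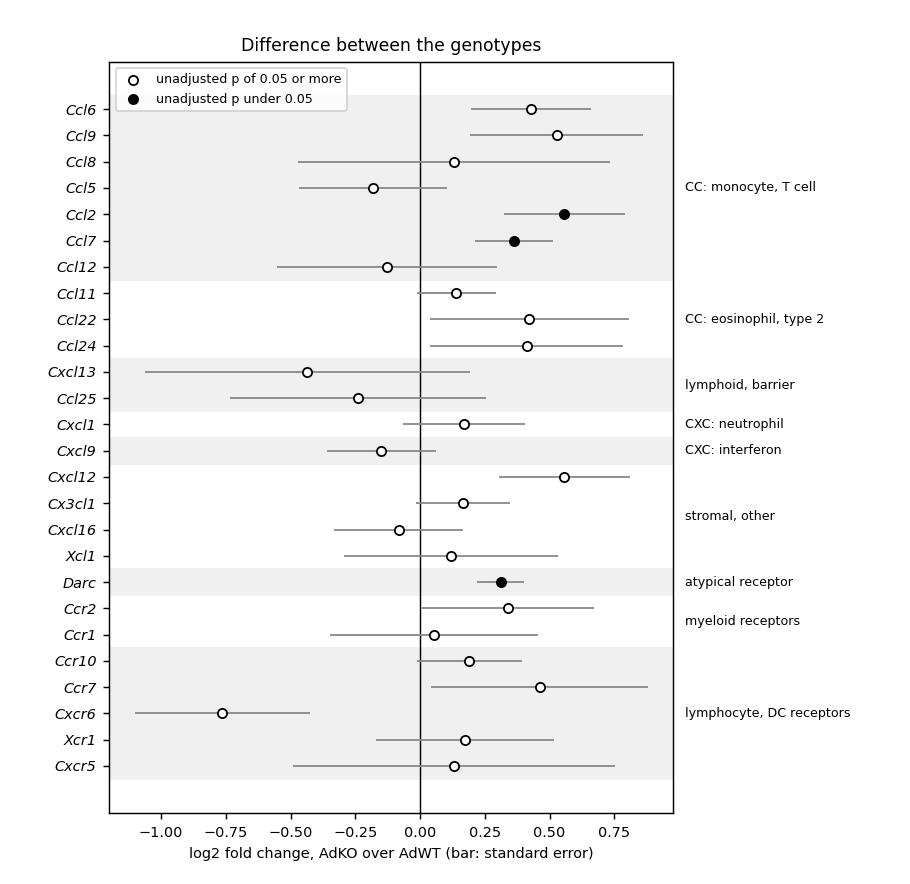
Log2 fold change of AdKO over AdWT for 26 of the genes tested, with bars of 1 standard error, ordered by role. Filled points have an unadjusted *p* under 0.05 in edgeR (*Ccl2*, *Ccl7* and *Darc*), and 7 points lie left of 0, with most points within 2 standard errors of it.

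The spread over the 6 libraries, which includes the difference between the groups, was wide for these genes. The highest library was 2.47-fold above the lowest in the median gene, against 1.56-fold in the median of all rows, and 24 of the 27 genes were above the latter value. The ratio was widest for *Cxcr5* (7.86), *Cxcl13* (6.44) and *Ccl8* (6.16) and narrowest for *Darc* (1.33), *Ccr10* (1.46) and *Ccl11* (1.48). The lowest library was AdWT replicate 3 for 15 of the 27 genes, against 24.0% of all rows, and it was the highest for 0 of them. The highest library was AdWT replicate 1 for 9 genes (14.6% of all rows) and AdKO replicate 2 for 8 (18%). Summed over the 27 genes, the level was 1356, 983.5 and 759.6 CPM in the AdWT group and 1115, 1383 and 1389 CPM in the AdKO group, and 6 genes made up 84.5% of it. On this sum the AdWT libraries differed among themselves by more than the group means did.

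The sum of macrophage markers was also lowest in AdWT replicate 3. The summed level of 8 macrophage markers was 1159, 781.4 and 472.3 CPM in the AdWT group and 902.2, 1100 and 1217 CPM in the AdKO group. The 6 libraries stood in the same order for *Ccl9*, but not for *Ccl6* or for the sum of the 27 genes, where AdKO replicate 2 lay above AdWT replicate 1. *Emr1* was at 0, and 6 of these markers were tested, 5 with a log2 fold change above 0 and 1 below (median 0.41). *Mrc1*, *Lyz2* and *Mpeg1*, the most abundant of them, had log2 fold changes of 0.40, 0.36 and 0.48, with no unadjusted *p* under 0.05 in edgeR. Dendritic cell markers (5 with a row) summed to 229.8 to 377.0 CPM in the AdWT group and 311.0 to 385.1 CPM in the AdKO group, and fibroblast and progenitor markers (6 with a row) to 3455 to 7509 and 5676 to 10330 CPM. Of both sums AdWT replicate 3 was the lowest library, but not of every marker. Most of the fibroblast sum was *Col3a1*, which was lowest there (3200 CPM), as were *Lum* and *Dpp4*, while *Pi16*, *Cd34* and *Pdgfra* were not. Most of the dendritic cell sum was *Fscn1*, which was lowest in AdKO replicate 3 (183.3 CPM). *Itgax* and *Zbtb46* were lowest in AdWT replicate 3, and *Batf3* and *Cd209a* were not. The sum of the adipocyte markers was in turn highest in AdWT replicate 3, at 54690 CPM, most of it from *Fabp4*. *Fabp4*, *Lep*, *Adipoq* and *Lipe* were highest there, but *Pparg* was not and *Plin1* was lowest there (31.78 CPM). Of the 6, 5 had a log2 fold change below 0 (median -0.19), with an unadjusted *p* under 0.05 in edgeR for *Lep*. Neutrophil markers (5 with a row, *Retnlg* at 0) summed to 19.4 to 36.0 and 15.9 to 48.8 CPM, the last value with 28.9 CPM from *Ltf* in AdKO replicate 3, and lymphatic endothelial markers (4 with a row, *Mmrn1* at 0) to 107.2 to 118.1 and 87.9 to 118.4 CPM. The 7 skeletal muscle markers with a row, *Myh4* at 0, summed to 11.8 to 152.2 CPM in the AdWT group and 2.57 to 3.37 CPM in the AdKO group. All 5 tested were lower in the AdKO group at an unadjusted *p* under 0.05 in edgeR, against 2.98% of all rows. The part of cell makeup in the differences of the chemokine and receptor genes was not tested.

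**Figure D3:**
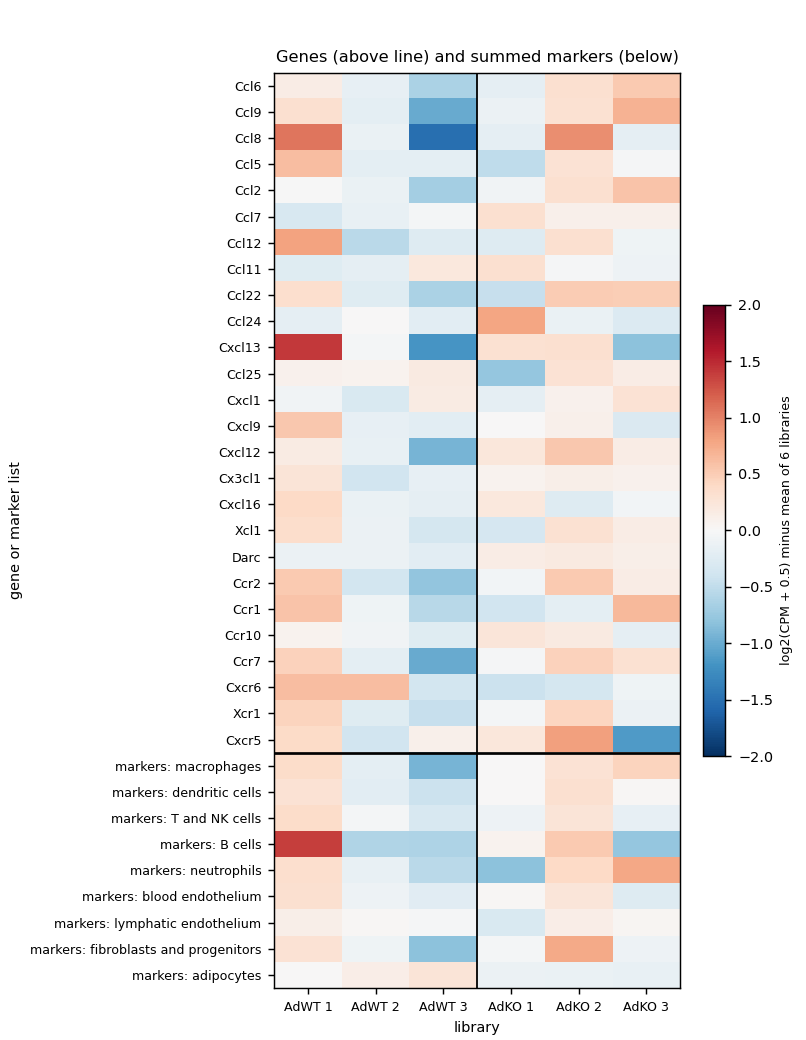
Deviation of each library from the mean of the 6 libraries, in log2(CPM + 0.5), for 26 of the genes tested (above the line) and for the summed level of marker genes of other cell types (below it). AdWT replicate 3 is blue and AdWT replicate 1 red for most genes of monocytes and macrophages and for the macrophage markers, while *Ccl7*, *Ccl11* and *Darc* do not follow this pattern.

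Levels of different genes were compared per kilobase of exon. On this scale *Ccl6* led with a mean of 171 CPM per kb over the 6 libraries, followed by *Ccl11* with 130 and by *Ccl9* and *Ccl8* with 81.0 and 80.4. *Cxcl9* was at 38.5, *Ccl5* at 20.4, *Darc* at 19.8 and *Cxcl12* at 16.7, the last from its most abundant row alone. *Ccl2*, the ligand best known in obese fat, was at 12.6 and *Ccl7* at 10.9 CPM per kb. The receptors other than *Darc* were lower, with *Ccr2* at 4.19 and *Ccr10* at 2.22, and *Xcr1* closed the order with 0.495. *Ccl25* was left out, as its length was not assigned.

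**Figure D4:**
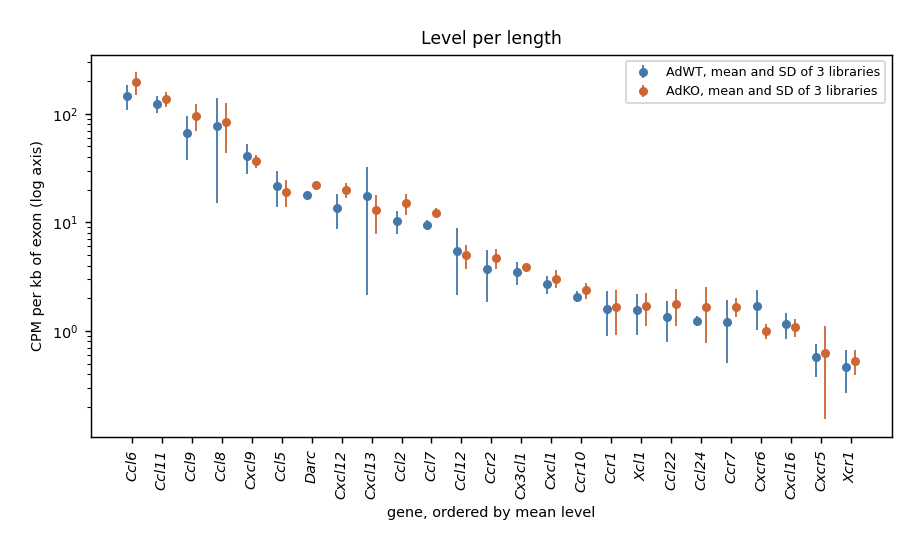
Level per length of tested genes with an exon length, in CPM per kb of exon on a log axis, as mean and SD of the 3 libraries of each group, ordered by the mean over all libraries. *Ccl6*, *Ccl11*, *Ccl9* and *Ccl8* lead in both groups, and the error bars of the groups overlap for most genes.

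Many of these genes lie in clusters (NCBIM37). The cluster at chr11:81849073-82119192 holds *Ccl2*, *Ccl7*, *Ccl11*, *Ccl12*, *Ccl8* and *Ccl1* within 270.1 kb, and of its 5 genes tested 4 had a log2 fold change above 0 and 1 below. The cluster at chr11:83339280-83478185 holds *Ccl5*, *Ccl9*, *Ccl6*, *Ccl3* and *Ccl4* within 138.9 kb, with 2 above and 1 below. The genes below 0, *Ccl12* and *Ccl5*, turned to 0.49 and 0.15 without AdWT replicate 1. *Ccl22* and *Cx3cl1*, 2 of the 3 genes at chr8:97269490-97335935, were both above 0.

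**Figure D5:**
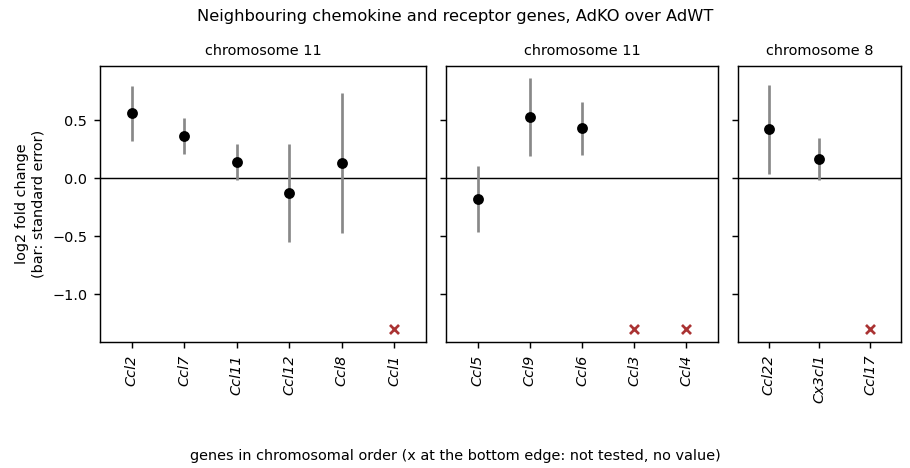
Log2 fold change of AdKO over AdWT, with bars of 1 standard error, for genes in 3 clusters in their order along the chromosome, where an x marks a gene that was not tested. *Ccl2* at 0.56 and *Ccl12* at -0.13 lie in one cluster, and *Ccl9* at 0.53 and *Ccl5* at -0.18 lie in another.

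The pathway beyond the named families gave 16 tested genes from a list of 36, of which 25 had a row. Of these 16, 11 had a log2 fold change above 0 (51.7% of all rows) and 5 below (median 0.11), and 0 had an adjusted *p* under 0.05. At an unadjusted *p* under 0.05 in edgeR 1 was on either side, against 2.76% of all rows higher in the AdKO group and 2.98% lower. *Pf4*, itself a CXC chemokine of platelets and macrophages whose symbol the naming rule does not take, had 1016, 1158 and 832 counts in the AdWT group and 1246, 1432 and 1295 in the AdKO group. Its groups did not overlap, with the AdKO group higher, as in 6.16% of all rows. Its log2 fold change was 0.43 (SE 0.110, unadjusted *p* = 0.00518 and adjusted *p* = 0.817 in edgeR). *Grk5*, a kinase that phosphorylates activated G protein-coupled receptors, had 397, 403 and 401 counts against 322, 334 and 355, with a log2 fold change of -0.23 (SE 0.0919, unadjusted *p* = 0.0378 and adjusted *p* = 0.851 in edgeR). *Gnai2*, the G protein subunit through which chemokine receptors signal, was at 297.2 to 317.0 CPM and 298.3 to 358.2 CPM. Of 29 listed inducers of chemokine genes, such as cytokines and NF-κB subunits, 11 were tested, 7 above 0 and 4 below (median 0.05), with 0 at an unadjusted *p* under 0.05 in edgeR (5.73% of all rows). The NF-κB target *Nfkbia* had a log2 fold change of 0.05 (SE 0.117).

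The other 26 genes did not pass the filter of the edgeR test. Of these, 14 had few counts, and the values were 13, 7 and 6 against 9, 5 and 12 for *Ccl17*, 4, 10 and 6 against 8, 17 and 27 for the eosinophil receptor *Ccr3*, 5, 3 and 6 against 1, 1 and 4 for *Ccr8*, and 3, 4 and 7 against 1, 3 and 5 for *Ccr4*. DESeq2, which fitted these 14 as well, gave *Ccr3* an unadjusted *p* under 0.05 but no adjusted *p* under 0.05. *Ackr4*, *Ccl1*, *Ccl21a*, *Ccl26*, *Ccr1l1*, *Ccr6*, *Cxcl2*, *Cxcr1* and *Cxcr2* had at most 6 counts in any library, and *Cxcl17* had at most 1 in all libraries except AdKO replicate 3, which had 17. The receptors CXCR1 and CXCR2 mark neutrophils, and no difference was detectable at these counts. A further 12 genes were at 0 in all libraries, namely *Ccl3*, *Ccl4*, *Ccl19*, *Ccl19-ps3*, *Ccl20*, *Ccl21c*, *Ccl27a*, *Ccl27b*, *Ccl28*, *Ccr9*, *Cxcl15* and *Cxcr4*. Of these, 7 have several rows in the table and 5 have a single row, while over all symbols 20.1% of those with several rows and 31.8% of those with a single row were at 0. A 0 is only what the table lists, since the endothelial receptor *Kdr*, with a single row, had at most 2 counts in any library of this vascularized tissue. *Cx3cr1*, *Ackr2*, *Ackr3* and further CXC ligands were not analysed here.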

How the data were processed

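Bulk RNA-Seq of iWAT was used, with 3 libraries per group. The authors prepared stranded libraries, used HISAT2 for alignment to mm9, and the deposited values are raw counts per row without normalization, and the counting tool is not given in the sources used here. Of the 37024 rows, a gene is represented by the row of its symbol with the highest total, which may miss reads of the 13 of the 53 genes that have several rows. No column belonged to no sample. Groups follow the labels.

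Counts were fitted with edgeR 4.0.16 in R 4.3.3 (filterByExpr by group, TMM scaling, glmQLFit and glmQLFTest), with Benjamini-Hochberg adjustment over the 9872 rows tested, with a threshold of 0.05. The SE was taken from the log2 fold change and the F of the test. Permutation tests used log2(CPM + 0.5). The common coefficient of variation between libraries was 0.1959, which limits abundant genes more than depth does. The labels do not say whether replicates are single animals or pools, and the authors call them biological replicates. The *p* values measure the spread between these libraries. DESeq2 1.42.0 with its defaults (alpha 0.1), 3 other scalings (RLE, upper quartile, library size), 2 other filters (a minimum of 1 count in any library or of 10 in all), a robust fit, a replicate block, rows of a symbol summed and each library left out were alternatives. The fit was tested on simulated data with 200 changed genes. Alignments of promoters and motif matches were made with Python 3.11.15. The annotation for NCBIM37 was GENCODE vM1.

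A gene was given with its value in every library if it was tested and among the 12 with the highest mean CPM, had an unadjusted *p* under 0.05 or had groups that do not overlap. *Cxcr6*, *Ccl24*, and genes with few counts were added after their values were seen. The genes, the role, pathway and marker lists and the motifs were chosen with earlier results of these data known. The result of 1 tested gene is counted but not reported here.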

Additional observations from a re-analysis of the deposited data

How the results depend on the processing

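The number of genes with an adjusted *p* under 0.05 was 0 in edgeR's test and 0 under every alternative run. The number with an unadjusted *p* under 0.05 was 3, and it was 7 of 41 with a filter of at least 1 count in any library (4.32% of all rows) and between 1 and 9 when 1 library was left out. The 9 genes without AdWT replicate 1, all above 0, included *Ccl2*, *Ccl6*, *Ccl9*, *Ccr2*, *Ccr7*, *Cx3cl1*, *Cxcl12* and *Darc*. The median log2 fold change of 0.17 lay between 0.16 and 0.21 under other scalings, filters and tests and between 0.0544 (without AdWT replicate 2) and 0.46 (without AdWT replicate 1) with a library left out. *Darc* was the 1 gene with an unadjusted *p* under 0.05 in every alternative. Of the 27 genes, 15 kept their direction in all alternatives. None turned under other scalings, filters, the robust fit, summed rows or DESeq2.

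For 12 genes the log2 fold change turned with a library left out, and the lowest and highest values, each with the library left out, were -0.42 (AdWT 2) to 0.49 (AdWT 1) for *Ccl12*, -0.10 (AdKO 1) to 0.65 (AdKO 3) for *Ccl24*, -0.60 (AdKO 2) to 0.17 (AdKO 1) for *Ccl25*, -0.39 (AdKO 2) to 0.15 (AdWT 1) for *Ccl5*, -0.35 (AdKO 2) to 0.97 (AdWT 1) for *Ccl8*, -0.38 (AdKO 3) to 0.45 (AdWT 1) for *Ccr1*. They were -0.87 (AdWT 3) to 0.54 (AdWT 1) for *Cxcl13*, -0.23 (AdKO 1) to 0.15 (AdWT 1) for *Cxcl16*, -0.29 (AdWT 3) to 0.14 (AdWT 1) for *Cxcl9*, -0.54 (AdKO 2) to 0.62 (AdKO 3) for *Cxcr5*, -0.11 (AdWT 3) to 0.48 (AdWT 1) for *Xcl1* and -0.062 (AdKO 2) to 0.57 (AdWT 1) for *Xcr1*. Which property of the library turned them was not tested.

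Whether libraries with the same replicate number are paired was not settled, as their deviations had correlations of -0.08, -0.13 and 0.33. With the replicate block, 0 genes had an adjusted *p* under 0.05, 2 had an unadjusted *p* under 0.05 (*Cxcl12* and *Darc*, 4.23% of all rows), the median was within the range above and *Cxcr5* turned to -0.0392. AdWT replicate 1 correlated best with AdKO replicate 2 (0.411) and not with its own number, while AdWT replicate 3 correlated best with AdKO replicate 3 (0.33).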

Other observations

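*Cxcl17*, a chemokine of mucosal epithelium, had 17 counts in AdKO replicate 3 and at most 1 in every other library. *Ltf*, which encodes lactoferrin, a protein of neutrophil granules and of glandular secretions, had 481 counts in the same library and 2 to 18 in the others, while the neutrophil gene *S100a8* had 330 counts there, within the range of 229 to 557 over all libraries. In edgeR, *Ltf* had a log2 fold change of 4.32 (SE 1.74, unadjusted *p* = 0.04 and adjusted *p* = 0.851), *S100a8* had one of -0.13, and *Cxcl17* did not pass the filter. These genes were named after their values were seen.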
